A study of Sus scrofa with 16 samples.

Results

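RBP2, BCO1, LRAT and ALDH1A1 are genes of vitamin A handling in the gut lining, and they were taken by their symbols from the 25880 genes of the deposited tables. All 4 were present, as RBP2 (ENSSSCG00000011663), BCO1 (ENSSSCG00000036572), LRAT (ENSSSCG00000008995) and ALDH1A1 (ENSSSCG00000028996). They were described by gut region and by cell class. The pigs were females of mixed breed aged 7.5 weeks, with no treatment or genotype named in the labels, and single cells were taken along the small intestine. The duodenum just past the pylorus is called DUOD, the jejunum JEJ, ileum that carries Peyer's patches (lymphoid tissue in the wall) IPP, and ileum free of patches NoPP. Epithelium was stripped with dithiothreitol and EDTA, enriched on Percoll and measured with 10x 3' version 3 droplets. The labels list 4 titles per region but the files hold 1 pooled matrix per region, so a region is 1 sample, its pigs cannot be told apart and no difference was tested.

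Vitamin A reaches the enterocyte, the absorptive cell of the gut lining, as retinol freed from retinyl esters or as plant carotenoids. SCARB1 takes up carotenoids, BCO1 cleaves beta-carotene into retinal, and RBP2 (cellular retinol-binding protein II) holds retinol and retinal inside the cell. LRAT joins retinol to a fatty acid, and the ester leaves in chylomicrons. ALDH1A1 oxidises retinal to retinoic acid, the ligand of nuclear receptors, and also acts on other aldehydes. ISX is a transcription factor known from mice to repress BCO1 and SCARB1.

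The matrices held 44726845 to 91813234 UMIs (counted RNA molecules) per region. After filtering, 7061 cells were used, of which DUOD gave 718, JEJ 986, IPP 3273 and NoPP 2084. Cells were put into classes by marker gates that contain none of the 4 genes. Enterocyte-gated cells were 208 for DUOD, 193 for JEJ, 165 for IPP and 34 for NoPP, with a median of 25639, 5831, 16064 and 15943 UMIs per cell. All 20 enterocyte markers found in the files were at least 2-fold higher in these cells, which the gate on them largely fixes. Many barcodes were lost to the limit of 25% mitochondrial UMIs: of those within the UMI and gene limits, DUOD lost 77.2%, JEJ 68.9%, IPP 32.3% and NoPP 29.4%. Barcodes that also had at least 1000 UMIs in another library numbered 135 for DUOD, 6 for JEJ, 21 for IPP and 136 for NoPP before any was left out. Of the NoPP ones, 121 were dropped because DUOD held 10 or more times their UMIs. Levels are summed over cells and scaled to the summed UMIs as CPM. Every interval is a 95% interval for counting error alone.

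RBP2 was highest in JEJ. Its level in enterocyte-gated cells was 1175 CPM (1146 to 1205) in DUOD, 7967 CPM (7871 to 8063) in JEJ, 389 CPM (366 to 414) in IPP and 805 CPM (728 to 887) in NoPP. The order of these values was JEJ, DUOD, NoPP, IPP, in 1 library per region and with intervals for counting error alone. Below JEJ it changed with the processing. The log2 ratio of NoPP over DUOD was 0.26 at a mitochondrial limit of 10% (8 NoPP cells). Over all epithelial-gated cells, IPP and NoPP were at 265 and 260 CPM. BCO1 had its highest level in JEJ too. It was at 16.8 CPM (13.5 to 20.8) in DUOD, 110 CPM (99.5 to 122) in JEJ and 1.15 CPM (0.24 to 3.35) in IPP. The IPP value stands for 3 UMIs in 165 cells. NoPP enterocyte-gated cells held 0 BCO1 UMIs. A floor of 3 UMIs corresponds to 5.98 CPM and the exact upper limit is 7.35 CPM, so the ileal regions could not be ordered for this gene.

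ALDH1A1 was highest in DUOD. It was at 5215 CPM (5153 to 5278) in DUOD, 2234 CPM (2184 to 2285) in JEJ, 290 CPM (270 to 312) in IPP and 528 CPM (466 to 595) in NoPP. No intervals overlapped, and the order was DUOD, JEJ, NoPP, IPP. LRAT varied least along the gut of the 4 genes. Its levels were 116 CPM (107 to 126) in DUOD, 107 CPM (96.4 to 119) in JEJ, 49.3 CPM (41.2 to 58.6) in IPP and 51.8 CPM (33.8 to 75.9) in NoPP. The intervals of DUOD and JEJ overlapped, and so did those of IPP and NoPP.

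**Figure D1:**
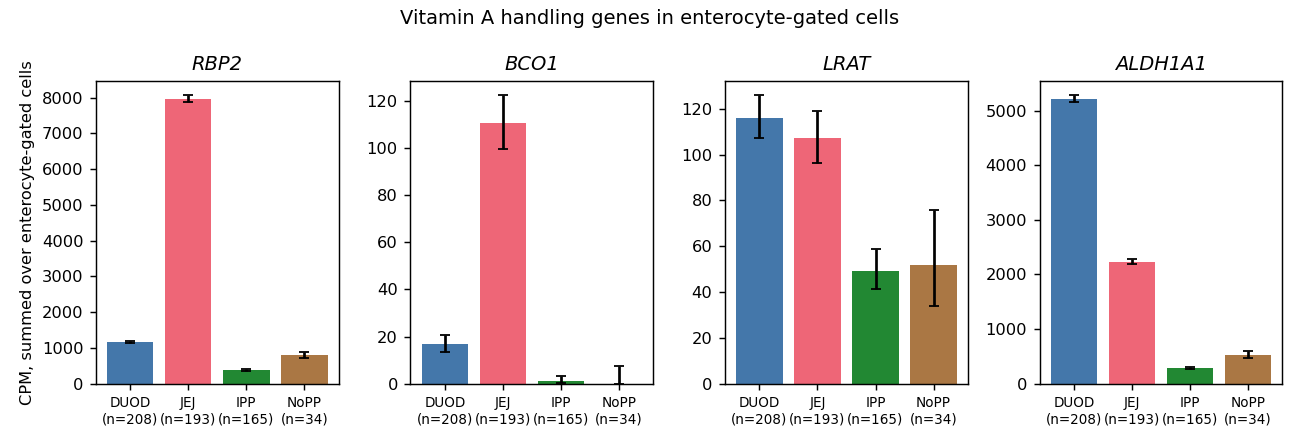
Levels of the 4 genes in enterocyte-gated cells (y axis: CPM summed over cells, a separate linear scale per gene; x axis: region with its number of cells; bars: CPM; error bars: exact 95% Poisson intervals, counting error only). RBP2 and BCO1 stand highest in JEJ at 7967 and 110 CPM, ALDH1A1 in DUOD at 5215 CPM, and LRAT is near 110 CPM in DUOD and JEJ and near 50 CPM in IPP and NoPP.

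Jejunum against duodenum asks how the genes change within the upper gut. RBP2 was 6.78-fold higher in JEJ than in DUOD (6.59 to 6.97), and BCO1 was 6.56-fold higher (5.18 to 8.38). ALDH1A1 went the other way and was 2.33-fold lower in JEJ (2.28 to 2.40). LRAT had a JEJ to DUOD ratio of 0.92 (0.81 to 1.05). Thus 2 of the 4 genes were at least 2-fold higher and 1 was at least 2-fold lower. Over all 9543 genes with at least 10 UMIs in these cells, 10.4% were at least 2-fold higher and 12.7% at least 2-fold lower, 23.1% either way. The cells differed in depth and in mitochondrial share, with medians of 8.34% mitochondrial UMIs in JEJ and 13.0% in DUOD, and the part these play was not tested. With a mitochondrial limit of 10% the LRAT ratio turned to 1.505 (94 UMIs in JEJ, 103 in DUOD), while BCO1 was 11.1-fold higher in JEJ (74 UMIs in JEJ, 11 in DUOD). In barcodes over the mitochondrial limit RBP2 was 3.63-fold higher in JEJ.

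Ileum without patches against jejunum asks what becomes of the genes in the lower gut. RBP2 was 9.90-fold lower in NoPP than in JEJ (8.97 to 10.9), 4.34-fold lower at a mitochondrial limit of 10% (8 NoPP cells) and 22.0-fold lower over all epithelial-gated cells. ALDH1A1 was 4.23-fold lower (3.74 to 4.80) and LRAT 2.07-fold lower (1.39 to 3.21). BCO1, with 0 UMIs in NoPP and 370 in JEJ, was at least 18.5-fold lower against a floor of 3 UMIs over the NoPP cells, and the exact 95% limit of the fold was 14.95. It was 10.8-fold lower at a mitochondrial limit of 40% (10 UMIs in 61 NoPP cells) and 70.5-fold lower over all epithelial-gated cells (2 UMIs in NoPP). All 4 genes passed 2-fold downwards, where 13.3% of the 8503 genes tested did and 11.3% were at least 2-fold higher, 24.6% either way. LRAT crossed the 2-fold line only just: it was 1.88-fold lower when mitochondrial, ribosomal and the 10 highest genes were taken out of the total, and 1.96-fold lower among cells with at least 10000 UMIs. Keeping the 121 shared barcodes made ALDH1A1 1.29-fold lower and LRAT 1.67-fold lower, both short of 2-fold.

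Against duodenum, ALDH1A1 in NoPP was 9.88-fold lower (8.75 to 11.2), LRAT was 2.24-fold lower (1.52 to 3.46), and BCO1 (0 UMIs in NoPP, 87 in DUOD) was at least 2.82-fold lower against the floor, with an exact 95% limit of 2.24-fold. RBP2 was 1.46-fold lower (1.32 to 1.62), short of 2-fold, and its log2 ratio turned to 0.26 at a mitochondrial limit of 10%, which left 8 NoPP cells. It passed 2-fold over all epithelial-gated cells (3.78-fold lower) and in barcodes over the mitochondrial limit (3.08-fold lower). The count of 3 of 4 genes at least 2-fold lower stands beside 15.4% lower and 14.1% higher, 29.5% either way, over 9104 genes. The NoPP cells are shared between this comparison and the one with JEJ. The BCO1 call rests on few molecules: with a mitochondrial limit of 40%, NoPP held 10 BCO1 UMIs in 61 cells and the gene was 1.63-fold lower. With the shared barcodes kept, ALDH1A1 was 3.02-fold lower and LRAT 1.81-fold lower.

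Ileum with patches against the adjoining ileum without them gave smaller differences. RBP2 was 2.07-fold lower in IPP than in NoPP (1.84 to 2.32) and ALDH1A1 1.82-fold lower (1.57 to 2.09). LRAT had an IPP to NoPP ratio of 0.95 (0.62 to 1.51), and BCO1, with 3 UMIs in IPP and 0 in NoPP, gave no ratio. Of the 3 genes with a ratio, 1 was at least 2-fold lower, against 7.18% of 8166 genes lower and 7.74% higher, 14.9% either way. The RBP2 call was lost without the IPP and NoPP cells that held most RBP2 UMIs (1.99-fold lower), with a mitochondrial limit of 10% (1.59-fold lower), with a mitochondrial limit of 40% (1.92-fold lower) and among cells with at least 10000 UMIs (1.98-fold lower). Over all epithelial-gated cells the RBP2 ratio of IPP to NoPP was 1.02 (0.91 to 1.14), and that of LRAT turned to 1.70 (1.17 to 2.52). ALDH1A1 passed 2-fold at a mitochondrial limit of 40% (2.23-fold lower), in barcodes over that of 25% (2.25-fold lower) and with the shared barcodes kept (5.95-fold lower), and was 1.10-fold lower at a limit of 10%. NoPP had 34 enterocyte-gated cells of 139 epithelial ones, and IPP had 165 of 255.

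Outside enterocytes the 4 genes did not behave alike. Enterocyte-gated cells held 96.8% of all RBP2 UMIs of used cells for DUOD, 94.2% for JEJ, 90.1% for IPP and 86.3% for NoPP. For LRAT the shares were 93.5%, 85.7%, 81.1% and 63.4% in the same order. For ALDH1A1 they were 94.98%, 81.8%, 61.4% and 38.0%. In NoPP, 95.3% of ALDH1A1 UMIs were in epithelial-gated cells of any class, 34.3% of all in enteroendocrine-gated ones.

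Enteroendocrine-gated cells, the hormone-making cells of the lining, had ALDH1A1 UMIs in every region. Their levels were 611 CPM (557 to 669) in DUOD, 922 CPM (814 to 1041) in JEJ, 580 CPM (511 to 655) in IPP and 537 CPM (471 to 609) in NoPP. In IPP this lay above the 290 CPM of enterocyte-gated cells, also without the highest cell (460 CPM). In NoPP the intervals of the 2 classes overlapped. Barcodes with 1 to 99 UMIs, read for RNA outside cells, had 2476, 1523, 225 and 553 CPM of ALDH1A1 in DUOD, JEJ, IPP and NoPP. Those values leave mitochondrial UMIs out of the total. The enteroendocrine level lay below them in DUOD and JEJ, above in IPP and close in NoPP. Such barcodes show the make-up of RNA outside cells, not how much of it a droplet with a cell takes in. From this comparison the DUOD and JEJ levels are therefore read neither as expression nor as background. The share of enteroendocrine-gated cells with an ALDH1A1 UMI was 91.9% for DUOD, 83.3% for JEJ, 84.4% for IPP and 73.8% for NoPP, before thinning for depth. After thinning each cell to 1000 UMIs it was 37.8%, 44.4%, 28.1% and 33.3%, beside 12.6%, 3.03%, 0.38% and 0.41% of T or innate lymphoid-gated cells thinned alike. The unthinned DUOD share in particular is not read as expression, since these cells had a median of 16718 UMIs and the lymphoid ones 2898. RBP2 in the same cells was at 71.3 CPM in DUOD, 141 CPM in JEJ, 6.71 CPM in IPP and 8.99 CPM in NoPP. In DUOD, 46.7% of the ALDH1A1 UMIs and 70.9% of the RBP2 UMIs of this class came from 1 cell.

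Cells of the crypt gate are weakly defined, with 4 of 10 crypt markers at least 2-fold higher and 1 of them among the 10 leading genes. ALDH1A1 there was at 979 CPM (795 to 1193) in 18 JEJ cells and 589 CPM (463 to 740) in 7 NoPP cells. Goblet-gated cells, which make mucus, were lower, at 284 CPM in JEJ, 72.4 CPM in IPP and 101 CPM in NoPP. The DUOD goblet value of 3231 CPM rested on 5 cells, with 84.98% of its UMIs in 1 of them. BEST4-gated cells, a distinct absorptive type, had 609 CPM of ALDH1A1 (505 to 729) and 415 CPM of RBP2 (329 to 515) in 39 JEJ cells, both below JEJ enterocyte-gated cells. LRAT in DUOD BEST4-gated cells was 138 CPM (66.4 to 255), on 10 UMIs in 7 cells. The epithelial cells that met no gate had 1590 CPM of ALDH1A1 and 1245 CPM of RBP2 in 25 JEJ cells. They held 8.80% of the ALDH1A1 UMIs and 2.23% of the RBP2 UMIs of JEJ. In DUOD this class, with 16 cells, held 0.095% and 0.096%. The hormone genes MLN and GHRL led the class as a whole, which was not read for JEJ alone. In JEJ, 8 cells lay just below the enterocyte limit.

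Lymphoid cells, which should lack the genes, were read as background. In T or innate lymphoid-gated cells, RBP2 was at 34.4 CPM in DUOD, 92.9 CPM in JEJ, 4.92 CPM in IPP and 1.80 CPM in NoPP. ALDH1A1 was at 133, 33.9, 3.44 and 4.49 CPM in that order of regions. The region with most RBP2 in enterocytes thus had most in lymphoid cells, and the same was true of ALDH1A1. The share of these cells with an RBP2 UMI was 9.47%, 27.9%, 1.84% and 0.64%, at a median of 2898 to 3586 UMIs per cell, against 99.04%, 98.96%, 74.5% and 94.1% of enterocyte-gated cells. LRAT and BCO1 did not exceed 6.602 CPM there in any region. Barcodes with 1 to 99 UMIs, read directly for RNA outside cells and given as CPM of UMIs that are not mitochondrial, held more than lymphoid cells. On that scale ALDH1A1 in DUOD, JEJ, IPP and NoPP was at 6111, 2586, 352 and 624 CPM in enterocyte-gated cells, beside 2476, 1523, 225 and 553 CPM in these barcodes. RBP2 was at 1377, 9223, 472 and 952 CPM in enterocyte-gated cells, beside 930, 4325, 250 and 280 CPM in these barcodes. BCO1 in IPP was at 1.39 CPM in enterocyte-gated cells and 5.10 CPM in these barcodes, so the IPP value of BCO1 is not above this background. Myeloid-gated cells, some types of which make retinoic acid in the gut wall, held 42.5 CPM of ALDH1A1 in DUOD (10 UMIs), below the T or innate lymphoid-gated cells.

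**Figure D2:**
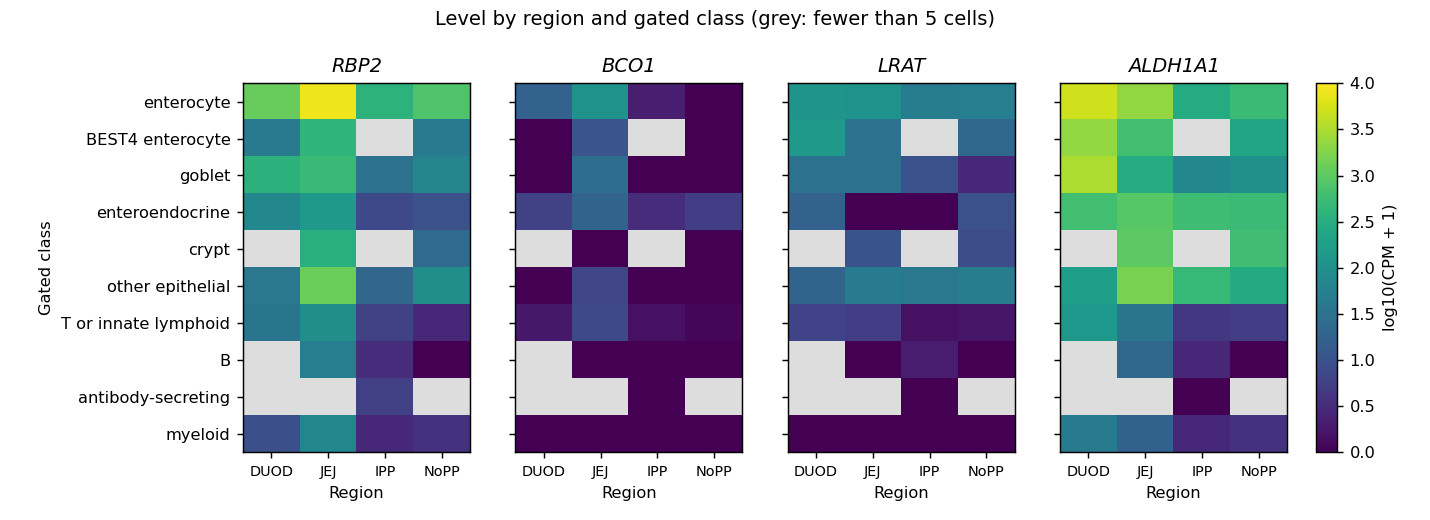
Levels of the 4 genes by gated class (rows) and region (columns), with colour giving log10(CPM + 1) from 0 to 4 and grey marking classes with fewer than 5 cells. RBP2 is brightest in the enterocyte row of every region, LRAT in DUOD is at 116 CPM in enterocyte-gated cells beside 138 CPM in 7 BEST4-gated ones, and ALDH1A1 stays between 537 and 922 CPM in the enteroendocrine row of all 4 regions.

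Single enterocyte-gated cells varied within a region. In DUOD the quartiles of RBP2 were 671, 1100 and 1643 CPM and those of ALDH1A1 4107, 5132 and 7170 CPM. In JEJ they were 4055, 6813 and 10187 CPM for RBP2 and 1499, 2225 and 3010 CPM for ALDH1A1. IPP differed in shape: 25.5% of its cells had no RBP2 UMI and 31.5% no ALDH1A1 UMI, at a median depth of 16064 UMIs. In DUOD and JEJ at most 2.59% of cells lacked either gene. BCO1 was found in 39 of 208 DUOD cells (18.8%), 99 of 193 JEJ cells (51.3%), 3 of 165 IPP cells (1.82%) and 0 of 34 NoPP cells, where 3 cells would be 8.82% and the exact upper limit is 10.3%. These are limits on cells with a UMI, not on cells that express the gene. Thinning to 1000 UMIs left 0.96% in DUOD, 17.6% in JEJ and 0.61% in IPP.

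LRAT was found in 152 DUOD cells (73.1%), 102 JEJ cells (52.8%), 76 IPP cells (46.1%) and 13 NoPP cells (38.2%). After thinning the shares were 13.0%, 10.9%, 6.06% and 11.8%, not the order of the unthinned shares. Among LRAT-positive cells, RBP2 was also found in 151 of 152 in DUOD, 102 of 102 in JEJ, 60 of 76 in IPP and 13 of 13 in NoPP. Of all enterocyte-gated cells, 99.04%, 98.96%, 74.5% and 94.1% had an RBP2 UMI in that order of regions. The overlap therefore does not show that the 2 genes go together. All 4 genes were found together in 16.8% of DUOD cells, 33.7% of JEJ cells, 1.21% of IPP cells and none of the 34 NoPP cells.

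**Figure D3:**
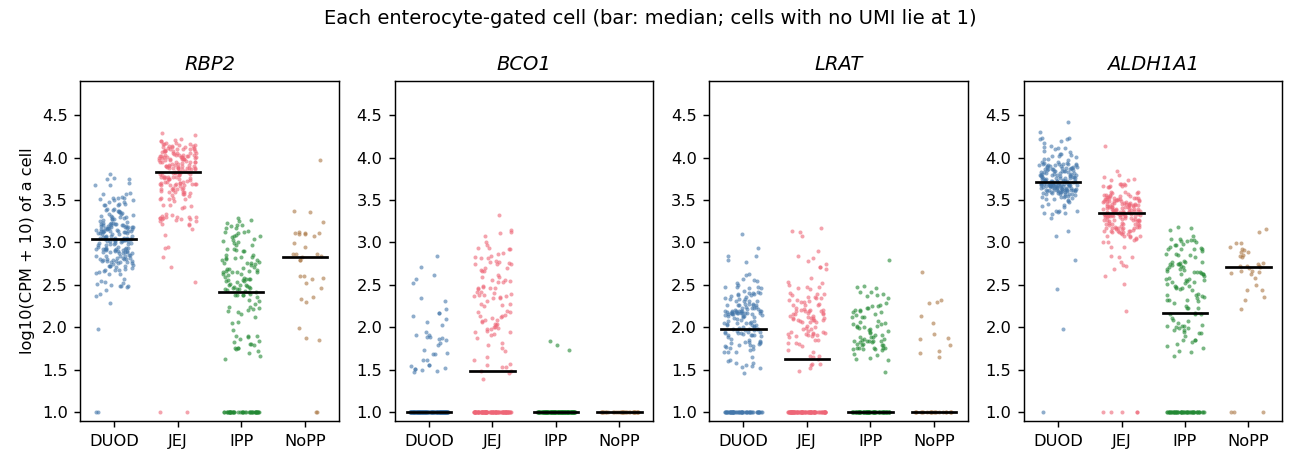
Each point is 1 enterocyte-gated cell (y axis: log10(CPM + 10) of the cell; x axis: region; bar: median; cells with no UMI of the gene lie at 1). JEJ cells lie highest for RBP2 with a median of 6813 CPM and DUOD cells highest for ALDH1A1 with 5132 CPM, and IPP cells spread from no UMI to 1936 CPM of RBP2 and 1519 CPM of ALDH1A1.

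In IPP, RBP2 and ALDH1A1 varied together from cell to cell. Across 146 IPP cells with at least 5000 UMIs, Pearson's r of log2(CPM + 100) was 0.72 between them. It was 0.65 for RBP2 and 0.68 for ALDH1A1 with FABP6, the ileal bile acid-binding protein. These cells share 1 library, and the values describe that library. The cells were then split into 3 equal groups by FABP6, a split chosen after values had been seen and on a gene that is also an enterocyte gate marker. RBP2 was at 94.5 CPM (74.8 to 118) in the low, 373 CPM (334 to 415) in the middle and 685 CPM (632 to 742) in the high FABP6 group. ALDH1A1 was at 57.4 CPM (42.3 to 76.1), 273 CPM (240 to 309) and 528 CPM (481 to 578). LRAT did not follow, with 70.6 CPM (53.7 to 91.1), 32.4 CPM (21.7 to 46.6) and 46.4 CPM (33.3 to 62.9). Median depth was alike in the 3 groups, from 15617 to 16765 UMIs.

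NoPP showed the same direction for RBP2 and ALDH1A1 in groups of 11 or 12 cells. RBP2 was at 508, 710 and 1165 CPM from the low to the high FABP6 group, and ALDH1A1 at 336, 514 and 701 CPM. LRAT ran the opposite way there, at 127 CPM (17 UMIs), 44.1 CPM (9 UMIs) and 0 UMIs. Median depth was not alike in these NoPP groups, at 12527, 17947 and 18775 UMIs from low to high FABP6. In NoPP cells grouped by depth, RBP2 was at 598, 744 and 898 CPM from shallow to deep. ALDH1A1 was at 485, 449 and 595 CPM in that order, and LRAT at 97.03, 65.64 and 31.09 CPM. The part of depth in the NoPP differences was not tested.

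In JEJ, BCO1 was spread unevenly and went with APOC3, an apolipoprotein of chylomicrons and an enterocyte gate marker. In 3 groups by APOC3, BCO1 was at 41.2 CPM (31.9 to 52.4), 145 CPM (124 to 168) and 238 CPM (199 to 283) from low to high. ISX was at 34.9 CPM (26.4 to 45.4), 18.2 CPM (11.4 to 27.6) and 5.53 CPM (1.14 to 16.2) in the same groups. That is the opposite order, on 56, 22 and 3 UMIs. RBP2 was at 6985, 9511 and 7433 CPM and LRAT at 98.6, 117 and 111 CPM, with no steady direction. The JEJ groups differed in depth, with medians of 29144, 7733 and 3569 UMIs, and in mitochondrial share, with medians of 11.1%, 11.5% and 1.92%. In JEJ cells grouped by depth, BCO1 was at 164, 212 and 85.1 CPM from shallow to deep. The part of depth and mitochondrial share in the BCO1 and ISX differences was not tested. Across 100 JEJ cells with at least 5000 UMIs, APOC3 had the highest r with BCO1 of the genes compared (0.60). In DUOD the same split gave BCO1 at 18.0, 21.5 and 11.2 CPM, with overlapping intervals. ISX fell there too, at 8.48, 1.26 and 0 CPM on 16, 2 and 0 UMIs, while BCO1 did not rise. Across cells with at least 5000 UMIs, r of BCO1 with ISX was -0.23 in JEJ and 0.15 in DUOD.

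RBP2 went with FABP2, the intestinal fatty acid-binding protein, in both upper regions. From the low to the high FABP2 group it was at 5364, 8036 and 10246 CPM in JEJ and at 814, 1085 and 1666 CPM in DUOD. FABP2 is also an enterocyte gate marker, the split was chosen after values had been seen, and the JEJ groups had medians of 4763, 8700 and 4315 UMIs and 11.1%, 10.4% and 2.83% mitochondrial UMIs, whose part was not tested. DUOD enterocyte-gated cells at or above the median of TM4SF1, a tetraspanin-like membrane protein, had 979 CPM of RBP2 (944 to 1015) and 6.76 CPM of BCO1 (4.13 to 10.4). Those below that median had 1438 CPM of RBP2 (1388 to 1489) and 30.3 CPM of BCO1 (23.5 to 38.5). ALDH1A1 was at 5331 CPM in the TM4SF1-high cells and 5060 CPM in the TM4SF1-low cells. The TM4SF1-high cells were deeper, with a median of 30114 UMIs beside 21158.5 in the TM4SF1-low cells. In DUOD cells grouped by depth, RBP2 was at 1645, 1175 and 1129 CPM from shallow to deep. BCO1 was at 43.03, 22.52 and 11.01 CPM in the same order. The part of depth in the TM4SF1 differences was not tested.

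**Figure D4:**
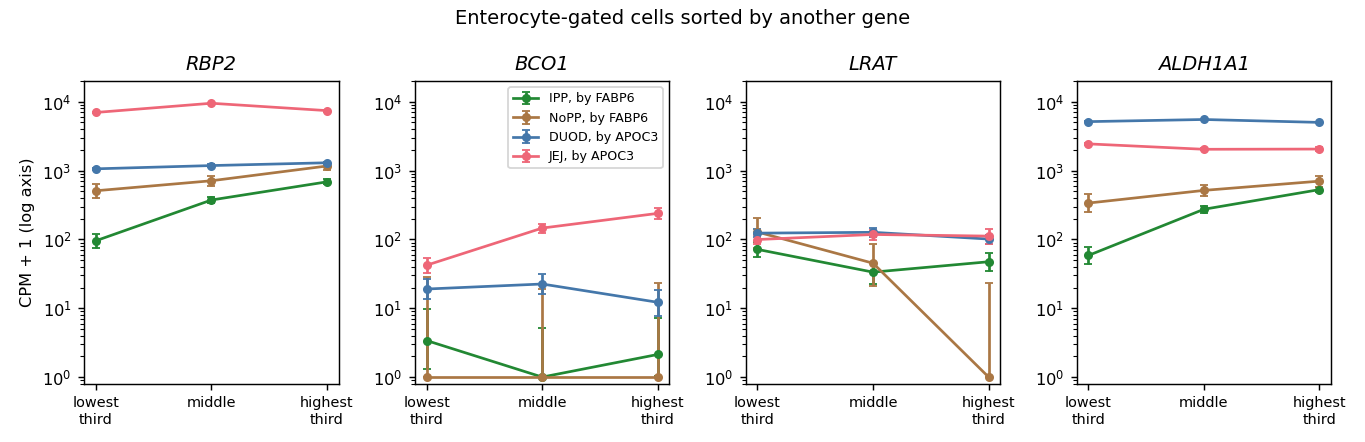
Levels of the 4 genes in enterocyte-gated cells split into 3 equal groups by FABP6 (IPP, NoPP) or APOC3 (JEJ, DUOD), on a log axis of CPM + 1 with exact 95% Poisson intervals. In IPP, RBP2 runs 94.5, 373 and 685 CPM and ALDH1A1 57.4, 273 and 528 CPM from the low to the high FABP6 group, and in JEJ, BCO1 runs 41.2, 145 and 238 CPM from the low to the high APOC3 group.

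Genes with the most similar profile were found over 22 region-by-class profiles of at least 20 cells each, by Pearson's r of log2(CPM + 10) among 7741 genes. Profiles of a region share a library, and the values are descriptions. RBP2 was most like GSTA2, a glutathione transferase (r = 0.96), SDSL, a serine dehydratase-like enzyme (0.96), S100G, the calcium binder calbindin-D9k (0.95), LRAT (0.95) and ENSSSCG00000035706 (0.94). LRAT was most like SDSL (0.95), RBP2 (0.95), the transcription factor CREB3L3 (0.94), the manganese transporter SLC30A10 (0.94) and the D-amino acid oxidase DAO (0.94). BCO1 was most like CYP1A1, a cytochrome P450 (0.88), the trehalase TREH (0.87), ENSSSCG00000035347 (0.84), CYP2B22, another P450 (0.84), and APOC3 (0.83). ALDH1A1 was most like ENTPD5, a nucleotidase (0.97), the water channel AQP11 (0.95), MGST2, a microsomal glutathione transferase (0.95), and ENSSSCG00000026893 (0.94). ALDH1A1 had r values of 0.81 with RBP2 and 0.62 with BCO1.

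The remaining vitamin A genes were taken from a list of 77 that includes the 4, of which 70 were in the files. In enterocyte-gated cells 40 of the 70 reached 10 CPM in at least 1 region. Of the 66 genes other than the 4, 37 had enough UMIs to compare JEJ with DUOD, where 7 were at least 2-fold higher and 10 at least 2-fold lower. That is 18.9% and 27.0%, beside 10.4% and 12.7% over all genes. NoPP against JEJ gave 6 higher and 10 lower of 32 (18.8% and 31.3%, beside 11.3% and 13.3%). NoPP against DUOD gave 7 higher and 13 lower of 37 (18.9% and 35.1%, beside 14.1% and 15.4%). IPP against NoPP gave 4 higher and 5 lower of 34 (11.8% and 14.7%, beside 7.74% and 7.18%). The median log2 ratio of these genes was -0.17, -0.06, -0.54 and -0.16 in that order of comparisons, beside 0.03, -0.06, 0.00 and -0.03 over all genes tested.

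Among uptake genes, SCARB1 was, like BCO1, at or near 0 in the ileum. It was at 51.1 CPM (264 UMIs) in DUOD and 33.7 CPM (113 UMIs) in JEJ, and had 0 UMIs in enterocyte-gated cells of IPP and NoPP. Against a floor of 3 UMIs it was at least 8.55-fold lower in NoPP than in DUOD. As CPM of UMIs that are not mitochondrial, the exact upper limit in NoPP was 8.69, beside 59.9 in DUOD. B-gated cells of IPP held 23.0 CPM of SCARB1 (223 UMIs), so the gene was detectable in that library. ISX, the repressor, was lowest in DUOD, at 3.48 CPM (18 UMIs) in DUOD, 24.2 CPM (81 UMIs) in JEJ, 34.8 CPM (91 UMIs) in IPP and 49.8 CPM (25 UMIs) in NoPP. The sterol transporter NPC1L1 was 2.45-fold higher in NoPP than in DUOD (1.88 to 3.14). PLB1, a brush border phospholipase that also hydrolyses retinyl esters, was 7.25-fold higher in IPP than in NoPP (2.77 to 26.9), on 151 and 4 UMIs.

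BCO2, which cleaves carotenoids at another bond, was also highest in JEJ, but was detected in the ileum. It was 4.33-fold higher in JEJ than in DUOD (3.42 to 5.54) and was at 28.3 CPM in IPP and 45.8 CPM in NoPP.

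Enzymes that interconvert retinol and retinal moved in both directions. SDR16C5, a retinol dehydrogenase, was 4.36-fold higher in NoPP than in JEJ (2.70 to 6.94) and 23.5-fold higher than in DUOD (12.2 to 47.7), with 32 UMIs in NoPP, 49 in JEJ and 14 in DUOD. DHRS4, a retinal reductase, was 4.73-fold lower in NoPP than in JEJ (2.26 to 11.9) and 5.32-fold lower than in DUOD (2.56 to 13.3). HSD17B6 was 7.21-fold lower in JEJ than in DUOD (4.78 to 11.3) and 6.75-fold lower in NoPP than in DUOD (2.61 to 25.0). The retinol saturase RETSAT was 2.72-fold lower in JEJ than in DUOD (2.39 to 3.10). ADH5 was 2.49-fold lower in IPP than in NoPP (1.83 to 3.36).

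Of the esterification and export genes, DGAT1, which can also esterify retinol, stayed between 245 and 489 CPM in all 4 regions. DGAT2 was 3.07-fold lower in NoPP than in JEJ (1.64 to 6.501). The chylomicron assembly factor MTTP was 3.62-fold higher in JEJ than in DUOD (3.36 to 3.91), and APOA4 was 3.88-fold lower in NoPP than in JEJ (3.55 to 4.25). MTTP, APOA4 and APOB are also enterocyte gate markers. RBP4, the plasma carrier of retinol, was at 81.3 CPM in DUOD enterocyte-gated cells (420 UMIs), with 1 UMI in JEJ and 0 in IPP and NoPP. In DUOD enteroendocrine-gated cells it was at 453 CPM, with 45.3% of the UMIs in 1 cell. The JEJ enteroendocrine level of 943 CPM came to 91.0% from 1 cell.

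ALDH1A1 was the only retinoic acid-making enzyme of the list above 1 UMI in enterocyte-gated cells. ALDH1A2 and ALDH8A1 had 0 UMIs there in every region, and ALDH1A3 had 1 UMI in JEJ. The retinoic acid binders CRABP1 and CRABP2 and the breakdown enzyme CYP26A1 had 0 UMIs as well. CYP26B1, another breakdown enzyme, was at 29.4 CPM (152 UMIs) in DUOD, 0.90 CPM (3 UMIs) in JEJ, 21.8 CPM (57 UMIs) in IPP and 5.98 CPM (3 UMIs) in NoPP. It was 32.9-fold lower in JEJ than in DUOD (11.03 to 161). CYP2S1, listed with retinoic acid breakdown, was 36.9-fold lower in JEJ than in DUOD (16.8 to 101), on 6 and 341 UMIs, and had 0 UMIs in IPP and NoPP. RARRES2, a gene that retinoids raise in other tissues, was 2.82-fold higher in JEJ than in DUOD (2.55 to 3.10). The receptors RARA and RXRA were present in all regions, RARA at 13.9 to 27.2 CPM and RXRA at 46.3 to 79.6 CPM.

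**Figure D5:**
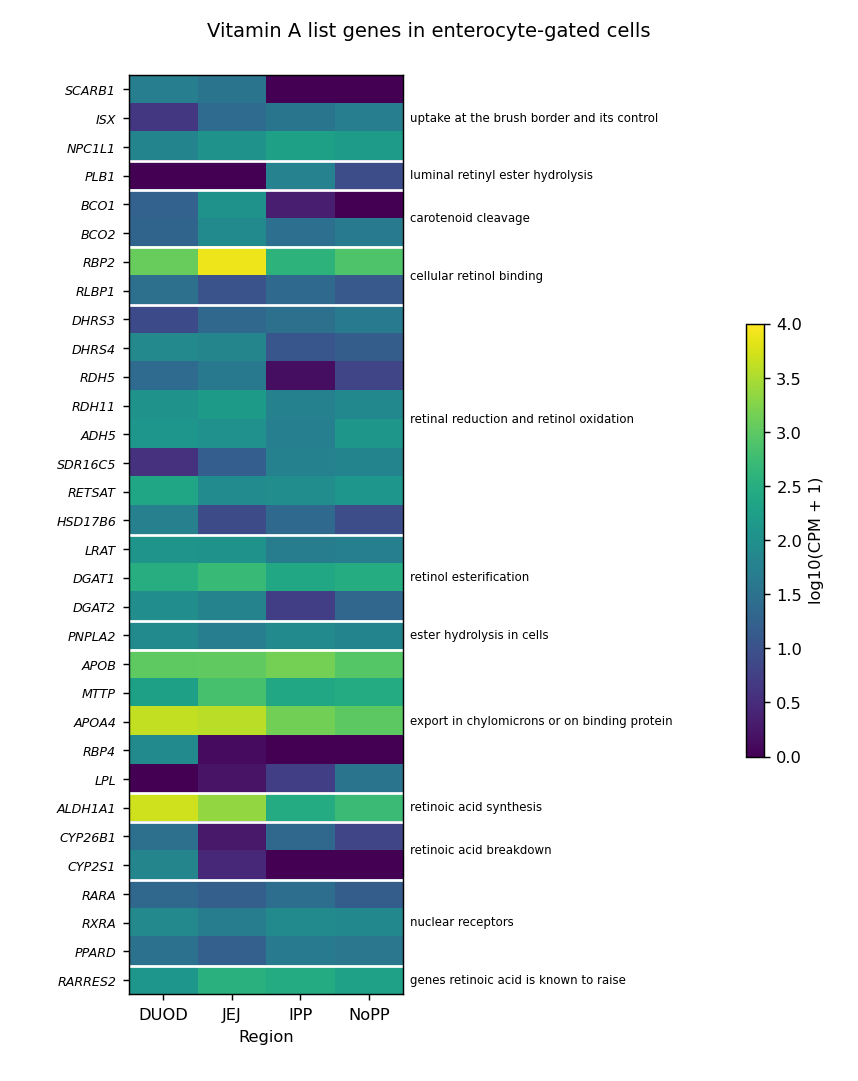
Levels of the vitamin A list genes that reached 20 CPM in enterocyte-gated cells of at least 1 region (rows, grouped by role; columns: regions), with colour giving log10(CPM + 1) from 0 to 4. BCO1 and SCARB1 are dark in IPP and NoPP, ISX and SDR16C5 are darkest in DUOD, and RBP4 and CYP2S1 are bright in DUOD alone.

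The order of regions was also read in barcodes outside the used cells, with levels as CPM of the UMIs that are not mitochondrial. Enterocyte-gated barcodes above the mitochondrial limit, 903 for DUOD, 676 for JEJ, 402 for IPP and 192 for NoPP, had RBP2 at 1284, 4659, 297 and 417 CPM. ALDH1A1 was at 4514, 1559, 223 and 502 CPM, LRAT at 158, 113, 68.0 and 74.3 CPM, and BCO1 at 38.2, 294, 1.91 and 18.2 CPM in the same order. These gave the same regional order for RBP2 and ALDH1A1 as the used cells. BCO1 was higher there than in the used cells of DUOD and JEJ, which had 19.7 and 128 CPM on the same scale. BCO1 had 12 UMIs in the NoPP barcodes above the limit and 0 in the used NoPP cells. The duodenal TMPRSS15 was at 162 CPM in those barcodes and 2.36 CPM in the used cells, and FABP6 at 49203 and 84910 CPM. The part of duodenal RNA in the BCO1 value was not tested.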

How the data were processed

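The deposited matrices hold raw UMI counts made with Cell Ranger 4, per the file headers. The build behind the alignment is not given in the sources used here. Coordinates are left out. Symbols came from the files (17733 genes) or the gene name table (977), and 7170 genes had none. Barcodes were kept with at least 1000 UMIs, 500 genes and at most 25% mitochondrial UMIs. A barcode was dropped where a different library held 10 or more times its UMIs. For the barcodes above the mitochondrial limit, 2 or more times its UMIs was enough. No doublet caller was run: cells past both the epithelial and the leukocyte limit, or both the B and T limits, were put aside. Classes used marker UMIs per 10000, with limits set with the files at hand (epithelial 20, leukocyte 20, enterocyte 100). Of the enterocyte-gated cells, 4, 4, 7 and 3 in DUOD, JEJ, IPP and NoPP lay between 100 and 200, near the limit.

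UMIs were summed per region and class. CPM have exact Poisson intervals, shares exact Clopper-Pearson intervals and ratios exact conditional intervals, all 95%. Only the ratio intervals were tried on simulated data. Those data were Poisson counts, so the trial cannot show how the intervals hold where cells spread beyond counting error. A count of 0 was set to a floor of 3 UMIs. With 1 sample per region no p-value is given, and a gene was called at a 2-fold difference and at least 10 UMIs. List genes were named past 2-fold with an interval leaving out 1 and at least 50 CPM in 1 region, at most 6 per direction, and genes outside that rule were chosen after their values were seen. The 4 genes and the lists were chosen with earlier results of these data known. Python 3.11.15, numpy 2.4.6, scipy 1.17.1, pandas 2.3.3 and matplotlib 3.10.9 were used. Some genes that the rules named are not reported here.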

Additional observations from a re-analysis of the deposited data

Results flagged for a closer look

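The 121 NoPP barcodes that were left out hold a signal of the vitamin A genes unlike the rest of NoPP. Each also occurs in DUOD and has a median of 4.34% of the UMIs it has there (2.77% to 6.21%). Of these barcodes, 108 were enterocyte-gated. Over all 121, RBP2 was at 1067 CPM (930 to 1219), LRAT at 88.5 CPM (52.5 to 140) and ALDH1A1 at 4726 CPM (4432 to 5035). The used NoPP enterocyte-gated cells had 805, 51.8 and 528 CPM, and the DUOD ones 1175, 116 and 5215 CPM. The duodenal enteropeptidase TMPRSS15 was at 2026 CPM in the left-out barcodes and the ileal FABP6 at 44.3 CPM.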

How the results depend on the processing

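No paired analysis was possible because each region is 1 matrix whose barcodes carry no title number. Of 175 recalculated ratios of the 4 genes between regions, 152 kept their direction and their side of 2-fold. The 152 include ratios that used the same numbers of cells as the main ones and equalled them. These were all ratios with shared barcodes left out at 5 times, and JEJ over DUOD with shared barcodes kept. The 5 ratios of BCO1 and LRAT that involve 8 NoPP cells with 0 UMIs at a 10% mitochondrial limit gave no value. The cause of the shifts below was not tested, and all values are log2 ratios. At a 10% limit LRAT in JEJ over DUOD was 0.59 and RBP2 was 0.26 in NoPP over DUOD and -0.67 in IPP over NoPP. At 40%, IPP over NoPP was -1.16 for ALDH1A1 and -0.94 for RBP2, and BCO1 in NoPP over DUOD was -0.70. Over all epithelial-gated cells, IPP over NoPP was 0.76 for LRAT and 0.026 for RBP2, and NoPP over DUOD was -1.92 for RBP2. LRAT in IPP over NoPP was 0.12 with cells weighted equally and 0.16 without the highest cell, where RBP2 was -0.99. LRAT in NoPP over JEJ was -0.91 without mitochondrial, ribosomal and the 10 highest genes. With the shared barcodes kept, ALDH1A1 was -2.57 in IPP over NoPP and -0.37 in NoPP over JEJ, and LRAT was -0.85 in NoPP over DUOD and -0.74 in NoPP over JEJ. Alternatives chosen after seeing the data were cells with at least 10000 UMIs (LRAT -0.97 in NoPP over JEJ, RBP2 -0.99 in IPP over NoPP), barcodes over the mitochondrial limit (IPP over NoPP ALDH1A1 -1.17 and RBP2 -0.49, NoPP over JEJ LRAT -0.61, NoPP over DUOD RBP2 -1.62), and shared barcodes left out at 5 times, which changed no call.

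Counts of genes past 2-fold depend on the UMI minimum. With at least 50 UMIs, 599 genes were higher and 732 lower in JEJ than DUOD (990 and 1213 at 10 UMIs), 375 and 716 in NoPP than JEJ (965 and 1129), 620 higher in NoPP than DUOD (1288), and 184 higher and 118 lower in IPP than NoPP (632 and 586). With 1 UMI, 1938 were higher in NoPP than JEJ, 2169 higher in NoPP than DUOD and 1277 lower in IPP than NoPP. The vitamin A list, the 4 genes included, gave 3 higher in NoPP than DUOD (7 at 10 UMIs) and 2 lower in IPP than NoPP (6) at 50 UMIs, and 7 higher in IPP than NoPP (4) with cells weighted equally. Levels over all used cells left their counting interval in 27 of 64 alternatives, and thinning moved 13 of 16 shares. The 34 NoPP enterocyte-gated cells limit every value of that region.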
